A study of Homo sapiens with 2 samples.

Results

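The 10 genes described here are 5 aldo-keto reductases (AKR1B1, AKR1B10, AKR1C1, AKR1C2 and AKR1C3), the quinone reductase NQO1, the aldehyde dehydrogenase ALDH3A1, the cytochrome P450 CYP4F11 and the export pumps ABCC2 and ABCC3. They were chosen by symbol from the 27685 genes of the deposited gene table, as enzymes and transporters typical of lung cancer with a mutated KEAP1, and all 10 were found. RNA came from NCI-H838, an established cell line of human lung adenocarcinoma, 48 hours after transient lipid-based transfection. One culture had received pCDH-LINC00472, a plasmid with the full-length long noncoding RNA LINC00472, and the other the empty pCDH vector. With 1 library per group, the differences are without replicates, no test between groups was possible, and every interval covers counting error only.

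NRF2, encoded by NFE2L2, is a transcription factor that switches on genes for the removal of electrophiles and oxidants by binding antioxidant response elements together with small MAF proteins. KEAP1 is the adaptor that delivers NRF2 to a ubiquitin ligase built on CUL3 and RBX1, and reactive compounds or KEAP1 mutations stop that delivery. NCI-H838 is known as a line with an inactivating KEAP1 mutation, and high aldo-keto reductase and NQO1 transcripts are a familiar mark of such tumours. The enzymes reduce aldehydes, ketones and quinones or oxidise aldehydes, and the pumps move glutathione, glucuronide and sulphate conjugates out of the cell.

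The LINC00472 library held 21093055 gene counts and the control library 54823706. LINC00472 (gene ID 79940) had 2563 counts in the control and 5655 in the library labelled for it, a log2 ratio of 2.23 (95% counting interval 2.16 to 2.30) after TMM scaling, a correction for the make-up of each library. Of 10 epithelial markers, 8 passed the minimum defined below and 3 were called lower, KRT7, KRT8 and KRT18, at 12.0, 26.5 and 23.9 FPKM in the LINC00472 library and 37.1, 94.2 and 157 in the control (FPKM is a level corrected for transcript length and sequencing depth). CDH1 (log2 ratio 0.47) and EPCAM (-0.19) were near 1 to 2 FPKM in both, and KRT19 had 0 against 44 counts. Of 7 lung lineage markers NAPSA alone passed the minimum and was called higher (88 against 66 counts), and NKX2-1, SFTPB, SFTPA1 and SCGB1A1 had 0 counts in both libraries. Of 7 immune markers CD68 (432 against 1498 counts) and CD14 (299 against 256, called higher) passed, CD3E had 0 counts in both, and PTPRC and LYZ had 0 against 32 and 49. A gene was called higher or lower where its mean level was at least 1 CPM (counts relative to the scaled library total), its ratio was at least 2-fold and its counting interval excluded equality. Of 14012 genes at that minimum, 16.3% were called higher and 23.8% lower in the LINC00472 library, and the median log2 ratio was -0.19. That balance moved with the scaling. TMM put 40.6% of calls on the higher side, total counts 57.9%, upper quartile factors 63.9% and totals without the 100 most abundant genes 62.1%. A correction for transcript length, which has values for protein-coding genes only, put 32.7% of its calls there. It called 1262 of those genes higher and 2603 lower, against 1378 and 3230 of them with TMM. The median gene stood at a log2 ratio of 0.11 under total counts and of 0.21 under upper quartile factors.

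All 10 genes passed the minimum, the lowest being ALDH3A1 at a mean of 1.58 CPM. NQO1, AKR1B1 and AKR1C3 were called lower in the LINC00472 library, ABCC3 and AKR1C1 were called higher, and the other 5 were not called. These shares, 30% lower and 20% higher, stand beside 23.8% and 16.3% of all genes and 26.3% and 11.2% of 12292 protein-coding genes at the minimum, so the number of calls does not set the 10 genes apart. Their log2 ratios ran from -2.29 for NQO1 to 1.41 for ABCC3, with a median of 0.01. The ratios of AKR1C1, AKR1C2, CYP4F11, ABCC2 and ABCC3 were above 0, those of the other 5 genes below it, and none lay between -0.71 (AKR1B10) and 0.73 (CYP4F11). That gap did not hold in every way of processing. AKR1B10 was at -0.33 with upper quartile factors, and AKR1C3 was at 0.053 once corrected for transcript length.

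**Figure D1:**
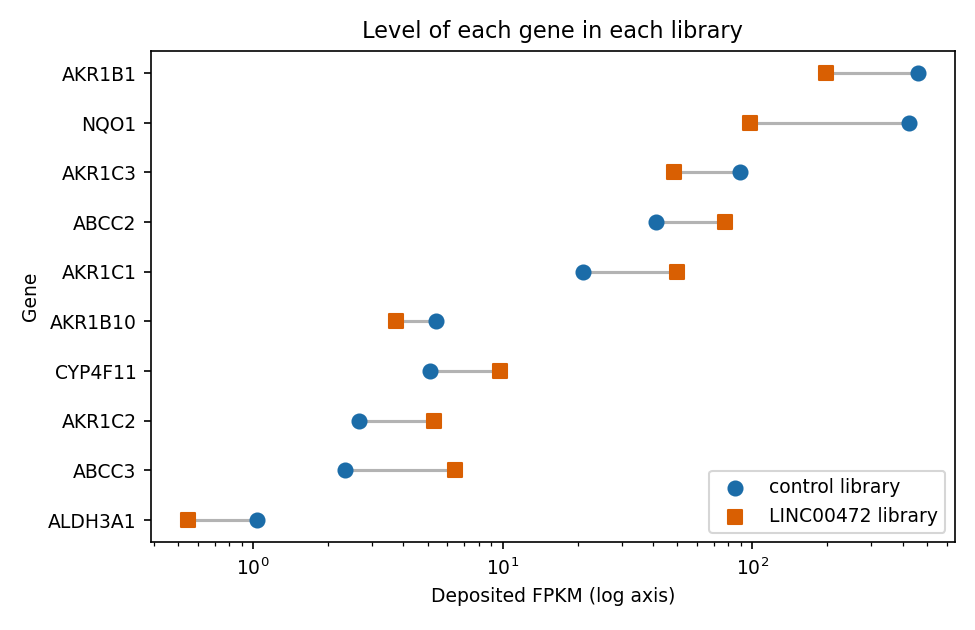
Deposited FPKM of each gene (log axis) in the control library (circles) and the LINC00472 library (squares), 1 library each. AKR1B1 and NQO1 are the highest in both libraries, at 462 and 423 FPKM in the control and 197 and 98.1 in the LINC00472 library, and ALDH3A1 is the lowest.

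Per length, the 10 genes spanned a 444-fold range in the control and a 361-fold range in the LINC00472 library. AKR1B1, which reduces glucose and lipid aldehydes, was the most abundant in both, at 462 FPKM in the control (rank 116 of all genes) and 197 in the LINC00472 library (rank 120). NQO1, which reduces quinones by a pair of electrons so that no semiquinone forms, followed at 423 FPKM (rank 126) in the control and 98.1 (rank 362) in the LINC00472 library. Behind these, the order changed between the libraries. In the control AKR1C3 came next (89.6 FPKM), then ABCC2 (41.2) and AKR1C1 (21.0), whereas in the LINC00472 library ABCC2 came next (78.0), then AKR1C1 (49.8) and AKR1C3 (48.4). The other 5 were low in both. AKR1B10, CYP4F11, AKR1C2 and ABCC3 lay at 5.38, 5.09, 2.66 and 2.33 FPKM in the control and at 3.72, 9.72, 5.30 and 6.44 in the LINC00472 library. ALDH3A1 was at 1.04 and 0.546 FPKM.

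NQO1 (gene ID 1728) showed the widest gap of the 10 on the lower side. It had 61869 counts in the control and 5927 in the LINC00472 library, which is 4.91-fold lower after scaling (log2 ratio -2.29, interval -2.33 to -2.26). The ratio lay at percentile 2.2 of all genes at the minimum, and it stayed at or below -1.91 under each of 8 other ways of processing the data. Of these, the tables of the single libraries hold the same counts, and DESeq2 size factors nearly equal those of TMM. NQO2, its relative that uses another cosubstrate, was 2.84-fold lower (246 against 1490 counts).

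In the AKR1B pair the more abundant gene was called. AKR1B1 (gene ID 231) had 8409 counts against 39758 in the control, 2.22-fold lower (log2 ratio -1.15, interval -1.19 to -1.12). It was no longer called with total counts (-0.86), upper quartile factors (-0.76), totals without the most abundant genes (-0.81) or the correction for transcript length (-0.57). AKR1B10 (gene ID 57016), a retinal and lipid aldehyde reductase often raised in KEAP1-mutant tumours, had 140 counts against 489, a log2 ratio of -0.71 (interval -0.996 to -0.441) that missed the rule. The log2 ratio of AKR1B1 was lower than that of AKR1B10 by 0.44, and the counting interval of the difference (0.15 to 0.71 in size) excluded 0. Such differences between a pair of genes do not depend on the scaling of the libraries, though a correction for transcript length can move them. AKR1B15, the neighbouring paralog of AKR1B10, was 7.50-fold higher from only 69 against 19 counts. Of the 50-base stretches of the AKR1B10 coding sequence, 19.7% also occur in AKR1B15 transcripts, so reads of this pair may have been assigned to either gene.

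The AKR1C enzymes reduce steroids, prostaglandins and lipid aldehydes, and AKR1C3 is also known for making testosterone and prostaglandin F. They went apart. AKR1C1 (gene ID 1645) had 1647 counts in the control and 1615 in the LINC00472 library, 2.09-fold higher after scaling (log2 ratio 1.06, interval 0.96 to 1.16). AKR1C2 (gene ID 1646) had 361 against 413 counts, a log2 ratio of 0.89 (0.69 to 1.10) that fell short of 2-fold. It was called higher with total counts (1.18), upper quartile factors (1.28) and totals without the most abundant genes (1.24). AKR1C3 (gene ID 8644) had 1359 against 6228 counts and was 2.15-fold lower (log2 ratio -1.11, interval -1.19 to -1.02). Thus nearly equal counts of AKR1C1 in libraries of unequal size stood beside a large gap for AKR1C3.

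The split did not rest on the scaling of the libraries. AKR1C1 exceeded AKR1C3 by 2.17 in log2 ratio (interval 2.04 to 2.30), a 4.49-fold difference, and AKR1C2 exceeded AKR1C3 by 2.002 (1.78 to 2.23). AKR1C1 and AKR1C2 differed by 0.17, with an interval of -0.07 to 0.40 that includes 0, so a difference of up to 0.40 cannot be told from counting error. Corrected for transcript length, the differences were 1.59 for AKR1C1 over AKR1C3, 0.87 for AKR1C2 over AKR1C3 and 0.73 for AKR1C1 over AKR1C2. Of the counts of these 3 genes, AKR1C1 held 48.4% (exact Clopper-Pearson 95% interval 46.7 to 50.1) in the LINC00472 library and 19.9% (19.0 to 20.7) in the control. AKR1C3 held 40.7% (39.1 to 42.4) and 75.1% (74.2 to 76.1). Summed, the 3 genes had 3335 counts against 8288, a log2 ratio of -0.22 (-0.28 to -0.17), close to the -0.19 of the median gene. The sum turned positive under total counts (0.065) and upper quartile factors (0.16). The direction of AKR1C3 also turned, to 0.053, once corrected for transcript length, and it was not called with total counts (-0.82), upper quartile factors (-0.72), totals without the most abundant genes (-0.76) or FPKM (-0.88).

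AKR1C1, AKR1C2 and AKR1C3 are close copies, which bears on how far their counts can be told apart. In GENCODE 29 transcripts, the 972 coding bases of AKR1C1 and AKR1C2 differ at 19 positions (98.05% identity), and those of AKR1C1 and AKR1C3 at 83 (91.5%). Of 50-base stretches of the coding sequence, 51.8% of those in AKR1C1 are also found in AKR1C2, against 18.3% of those in AKR1C3. The read length is not given in the sources used here. The stretch of 60 coding bases in which AKR1C1 and AKR1C3 differ most (bases 897 to 956 of the coding sequence) is shown to make this visible, with capitals for bases that differ from AKR1C1.
AKR1C1: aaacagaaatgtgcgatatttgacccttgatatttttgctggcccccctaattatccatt
AKR1C2: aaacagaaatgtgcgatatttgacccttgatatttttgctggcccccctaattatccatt
AKR1C3: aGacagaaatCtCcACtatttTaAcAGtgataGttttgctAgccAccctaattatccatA
AKR1C2 is identical to AKR1C1 here, whereas AKR1C3 has 13 other bases, in a stretch picked for that difference. Given the shared 50-base stretches, the counts of AKR1C1 and AKR1C2 are uncertain as single values. In AKR1C3, 23.0% of such stretches also occur in transcripts of other genes (54.5% in AKR1C1 and 57.2% in AKR1C2), so its count is not free of this. AKR1C4, the liver member of the cluster, had 0 counts in both libraries. AKR1C8P, whose symbol is that of a pseudogene but whose listed type is protein-coding, was 8.90-fold higher (241 against 57 counts).

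Start regions of the cluster were compared as well. The RefSeq windows of 250 bases before to 50 after the start (GRCh38.p14) were 93.5% identical between AKR1C1 and AKR1C2, and 73.5% and 71.3% identical between AKR1C1 and the 2 listed starts of AKR1C3. The 100 bases before each start are shown because AKR1C1 and AKR1C2 had ratios above 0 and AKR1C3 a ratio below it. Capitals mark a match to TGANNNNGC on either strand, a loose form of the antioxidant response element.
AKR1C1, chr10:4963315-4963414, plus strand: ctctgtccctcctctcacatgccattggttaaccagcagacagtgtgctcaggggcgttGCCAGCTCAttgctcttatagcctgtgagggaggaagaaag
AKR1C2, chr10:5003858-5003957, minus strand: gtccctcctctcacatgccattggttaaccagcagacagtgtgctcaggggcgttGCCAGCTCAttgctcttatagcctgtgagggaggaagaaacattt
AKR1C3, first start, chr10:5048681-5048780, plus strand: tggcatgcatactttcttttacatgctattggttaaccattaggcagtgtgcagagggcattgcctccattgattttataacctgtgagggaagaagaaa
AKR1C3, second start, chr10:5094314-5094413, plus strand: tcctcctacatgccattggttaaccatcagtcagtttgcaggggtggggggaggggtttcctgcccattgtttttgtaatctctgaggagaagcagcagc
The match is shared by AKR1C1 and AKR1C2. Neither AKR1C3 window holds these letters. The AKR1C1 and AKR1C2 windows are close copies (93.5% identical), so their matches are not independent, and 41.8% of all RefSeq start windows hold the loose form. Whether the match bears on the ratios was not tested.

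RefSeq start windows were matched for 7 of the 10 genes, in 10 windows. AKR1B10, ALDH3A1 and ABCC3 had none. The stricter element TGACNNNGC, whose matches are all matches of the loose form too, was found on either strand in 1 of the 10 windows, that of CYP4F11, and in 13.3% of all 35116 windows of this length. Its match, in capitals, reads on the opposite strand.
CYP4F11, chr19:15934995-15935043, minus strand: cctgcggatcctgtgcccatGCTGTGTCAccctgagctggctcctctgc
The loose form was in 5 of the 10 windows, those of AKR1C1, AKR1C2, NQO1, ABCC2 and 1 of CYP4F11, and in 41.8% of all windows. The lower gene NQO1 and genes with ratios above 0 thus both hold it. A match is a run of letters in a short window and does not show binding. An element more than 250 bases before a start would not be seen, so a window without a match does not mean a gene without the element.

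CYP4F11 and ALDH3A1 were not called. CYP4F11 (gene ID 57834), a hydroxylase of long-chain fatty acids and vitamin K, had 933 counts in the control and 725 in the LINC00472 library, a log2 ratio of 0.73 (interval 0.58 to 0.87). It passed 2-fold with total counts (1.01), upper quartile factors (1.11) and totals without the most abundant genes (1.07). Its relatives CYP4F12 and CYP4F3 had log2 ratios of 0.78 and 0.28. ALDH3A1 (gene ID 218), which oxidises aromatic and lipid aldehydes, had 25 counts against 104, a log2 ratio of -0.96 with a wide interval (-1.66 to -0.33). At this depth a fold anywhere from 1.25 to 3.16 lower was possible from counting error. Its neighbour ALDH3A2, the fatty aldehyde dehydrogenase, was 2.68-fold lower (2188 against 12488 counts).

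Both export pumps had ratios above 0. ABCC3 (gene ID 8714), a basolateral pump of glucuronides and bile salts, had 616 counts in the control and 772 in the LINC00472 library, 2.66-fold higher after scaling (log2 ratio 1.41, interval 1.26 to 1.57), and kept its call under each of 8 other ways of processing (1.17 to 1.80). Here too, some of these ways could barely move the ratio. ABCC2 (gene ID 1244), an apical pump of glutathione and bilirubin conjugates, had 9986 against 12763 counts, a log2 ratio of 0.74 (0.70 to 0.77). ABCC2 was thus not called, but passed 2-fold with total counts (1.02), upper quartile factors (1.12) and totals without the most abundant genes (1.08). The log2 ratio of ABCC3 exceeded that of ABCC2 by 0.68, and the counting interval of that difference (0.52 to 0.84 in size) excluded 0.

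**Figure D2:**
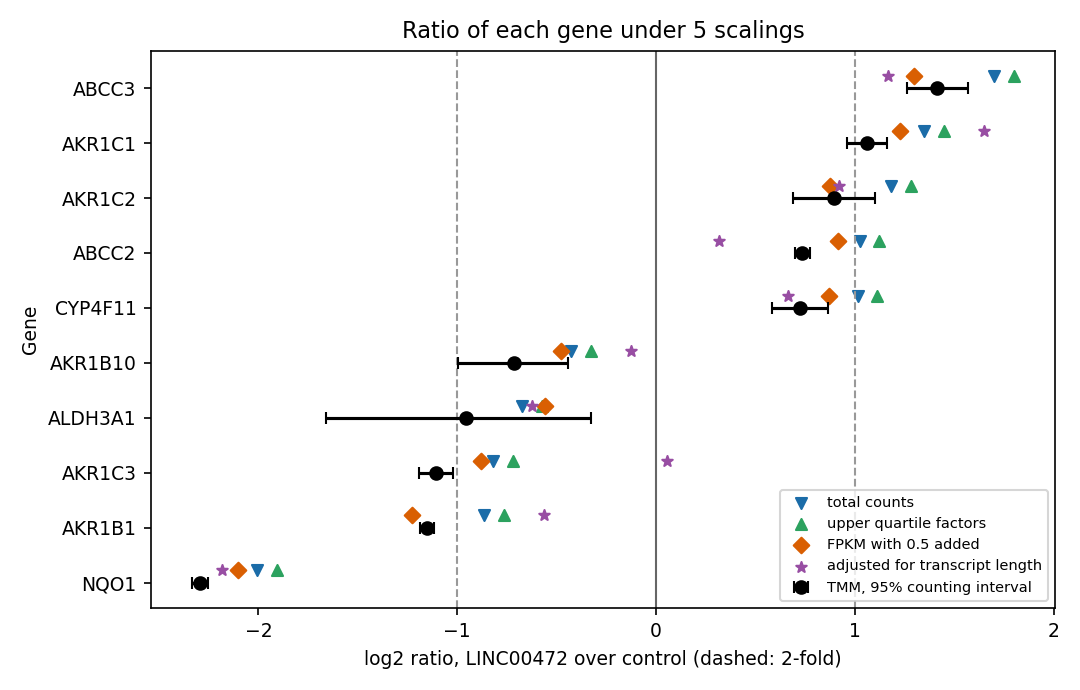
Log2 ratio of LINC00472 over control for each gene, as TMM-scaled counts with 95% counting intervals (black circles) and under 4 other ways of processing (coloured marks, offset upwards). The dashed lines mark 2-fold. NQO1 stays below -1 and ABCC3 and AKR1C1 above 1 under all 5, whereas AKR1C3 and AKR1B1 lie below -1 under some of them only.

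Transcript length ran alongside these ratios in the whole data set. Counts divided by FPKM are proportional to transcript length and were set to nucleotides on genes with 1 listed transcript. In the decile of shortest protein-coding transcripts (median 989 nt) the median log2 ratio was -1.48, and in that of longest ones (median 8234 nt) it was 0.35. AKR1C3 (1208 nt) fell in the shortest decile, where 67.6% of genes were called lower. AKR1B1 (1663 nt), AKR1B10 (1598 nt) and AKR1C1 (1379 nt) fell in the next, with a median of -0.90. AKR1C3, AKR1B1, AKR1B10 and ALDH3A1 lay within the middle 50% of their deciles. NQO1 (2570 nt), by contrast, lay 1.87 below the median of its decile, which was -0.42, and AKR1C1 lay 1.96 above that of its decile, where 7.65% of genes were called higher. ABCC3 (4872 nt) and ABCC2 (5443 nt) had decile medians of -0.07 and 0.10. With each ratio corrected for its decile, where the median of protein-coding genes stands at -0.32, NQO1 was at -2.19, AKR1B1 at -0.57, AKR1C3 at 0.053, ABCC2 at 0.32, ABCC3 at 1.17 and AKR1C1 at 1.65. The part of transcript length in these ratios was not tested.

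**Figure D3:**
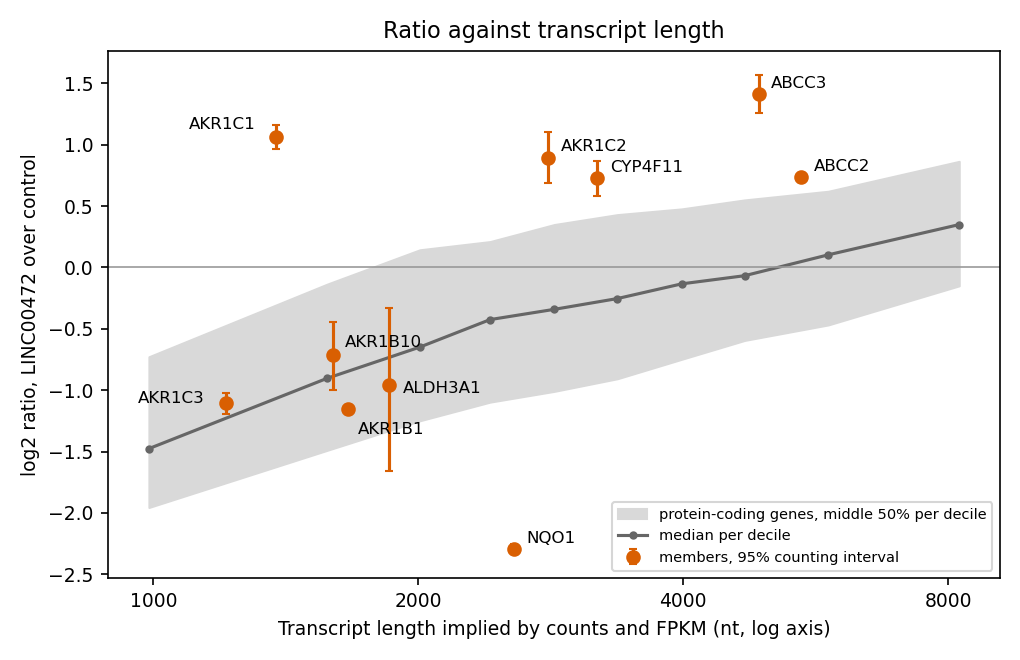
Log2 ratio of each gene (circles with 95% counting intervals) against its transcript length (log axis), over the median (line) and middle 50% (grey) of protein-coding genes in 10 length deciles. NQO1 lies below the grey band at 2570 nt, AKR1C1, AKR1C2, CYP4F11, ABCC2 and ABCC3 lie above it, and the remaining genes lie inside it.

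The mean transcript length implied for a gene also differed between the libraries in some of the 10. Over 4234 genes with 1 listed transcript and at least 100 counts in each library, the implied length in the LINC00472 library over that in the control ran from 0.998 to 1.004 in the central 95%. Over 7399 genes with several it ran from 0.873 to 1.13. AKR1B1, listed with 3 transcripts, stood outside both ranges at 1.20, with 1815 nt in the LINC00472 library and 1512 nt in the control. ABCC3, with 2 listed transcripts, was at 1.10, AKR1C2 with 4 at 1.06 and AKR1C3 with 3 at 0.978. NQO1 was at 0.999 in spite of 4 listed transcripts. How the authors summed FPKM over transcripts is not given in the sources used here.

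Other NRF2 targets were mostly lower. Of 39 measured (40 listed, none of them among the 10 genes), 27 were called lower (69.2%, against 23.8% of all genes and 26.3% of protein-coding genes) and 1 higher, with a median log2 ratio of -1.49 against -0.19 for all genes. They included the heme oxygenase HMOX1 (12.4-fold lower, 32 against 852 counts), the transaldolase TALDO1 (5.56-fold), and the carbonyl reductases CBR1 (5.54-fold) and CBR3 (5.12-fold). The 1 higher gene was ABCC1, the glutathione conjugate pump, at 2.18-fold (4802 against 4696 counts). Median transcript length in this list was 2339 nt. Corrected for length, the list median was -1.04, on a scale where the median of protein-coding genes stands at -0.32. With that correction 19 of the listed genes were called lower, beside 2603 of 12292 protein-coding genes. The list was chosen with earlier results of these data known, so its share of calls describes the listed genes only.

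Of 19 measured regulators of NRF2 (21 listed), 3 were called lower (15.8%, against 23.8% of all genes) and 0 higher (against 16.3%), with a median of -0.11. NFE2L2 itself had 3295 against 6479 counts (log2 ratio 0.11, interval 0.05 to 0.17), and KEAP1 had 527 against 1562 (-0.48, -0.62 to -0.33). The lower ones were the peptidase DPP3, which binds KEAP1 in place of NRF2 (3.83-fold), the ligase subunit RBX1 (3.68-fold) and the autophagy receptor SQSTM1 (3.28-fold), itself an NRF2 target. RBX1 (906 nt) fell in the decile of shortest transcripts, where 67.6% of genes were called lower. Corrected for transcript length, RBX1 was at -0.72 and was no longer called, whereas DPP3 was at -1.91 and SQSTM1 at -1.69. The aryl hydrocarbon receptor AHR, which also drives NQO1 and ALDH3A1, had a log2 ratio of 0.04 (6743 against 13939 counts). A list of AHR, other xenobiotic receptors, their partners and targets had 9 measured genes, of which 2 were called lower (22.2%, near the 23.8% of all genes) and 0 higher. The lower ones included the retinoid receptor RXRA (2.18-fold), a partner of the receptors NR1I2 and NR1I3 rather than of AHR. The AHR targets CYP1A1 and CYP1B1 had log2 ratios of 0.34 and -0.38.

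Relatives of the 10 genes are given by family, and ABCC1, ABCC5, CBR1 and CBR3 stand among the NRF2 targets too. Of 37 measured, 5 were called higher (13.5%) and 12 lower (32.4%), beside 11.2% and 26.3% of protein-coding genes, with a median of -0.36. The shares are near that background, and the counts by family below rest on few genes. Among 10 other quinone and carbonyl reductases and CYP4 enzymes, 6 were lower and 0 higher (median -1.41). They included CBR1, CBR3 and DHRS4 (3.96-fold), a retinal reductase, and DCXR (3.45-fold), which reduces sugars and diketones. Corrected for transcript length, CBR1 (-1.88) and CBR3 (-1.20) stayed past 2-fold, and DHRS4 (-0.83) and DCXR (-0.63) did not. Among 14 other aldehyde dehydrogenases, 5 were lower and 1 higher (median -0.74), with the mitochondrial ALDH1B1 7.03-fold, ALDH3A2 2.68-fold, ALDH2 2.49-fold and ALDH9A1 2.41-fold lower and the folate enzyme ALDH1L2 2.02-fold higher. Among 7 other ABC transporters of drugs and conjugates, 2 were higher and 0 lower (median 0.34), ABCC1 and ABCC6 (2.14-fold, 345 against 343 counts). In FPKM, ABCC6 was only 1.58-fold higher, and its implied transcript length in the LINC00472 library over that in the control was 1.54. Among 6 other aldo-keto reductases, AKR1B15 and AKR1C8P were higher and AKR7A2 (2.02-fold) lower. Median transcript lengths were 1520 nt for the reductase and CYP4 list, 3365 nt for the dehydrogenases and 4566 nt for the transporters. Corrected for length, the medians of these lists were -0.67, -0.82 and 0.37 in that order, where the median of protein-coding genes stands at -0.32.

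**Figure D4:**
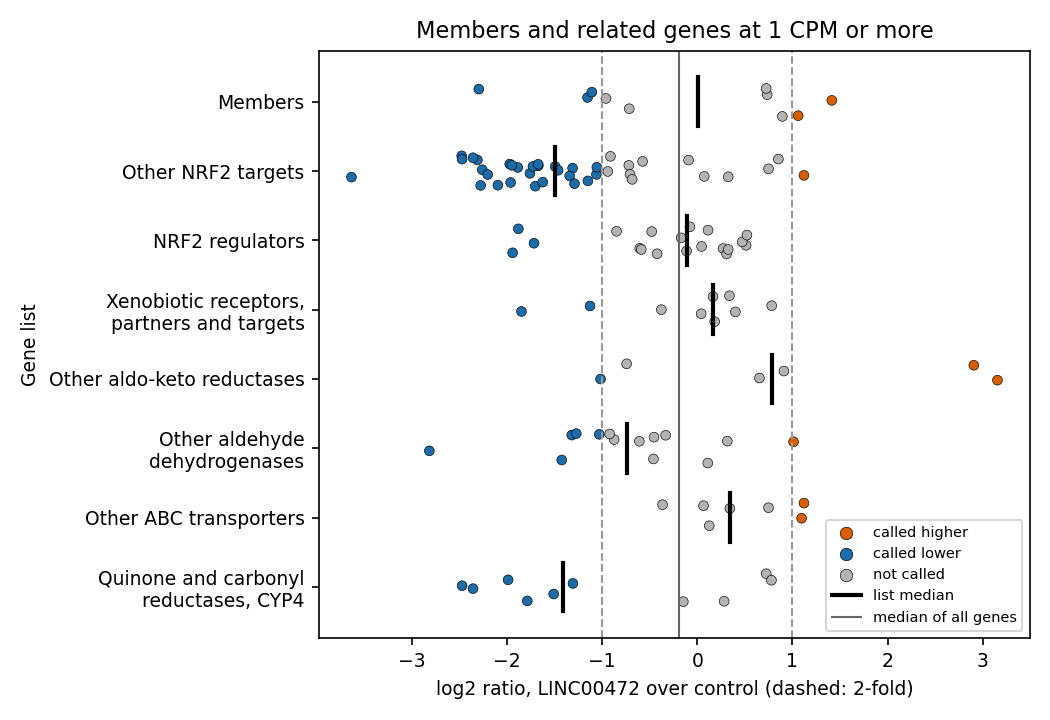
Log2 ratio of LINC00472 over control for each gene at 1 CPM or more, by list, with the list median (black bar), the median of all genes (grey line at -0.19) and 2-fold (dashed). The other NRF2 targets have their median at -1.49, whereas the 10 genes spread on both sides with a median of 0.01 and the other transporters have theirs at 0.34.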

How the data were processed

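Total RNA of 2 libraries, 1 per group (groups from sample titles), was analysed from 27685 genes. The authors deposited raw read counts per gene and FPKM, per the file headers, and the single-library tables hold the same counts for every gene. Per the submitters' processing notes, the build was hg19 and the tools, listed with no roles, included StringTie 1.3.4b, HISAT2 2.1.0 and Trimmomatic. Neither the counting method nor the strand setting is given in the sources used here. Counts were scaled with TMM factors (edgeR 4.0.16, R 4.3.3: 1.11 for LINC00472, 0.905 for control). Log2 ratios used a prior count of 0.5, with exact conditional 95% intervals of the ratio of 2 counts. Reads are not independent molecules, so intervals cover counting error only. Differences between a pair of genes have exact conditional odds ratio intervals (scipy 1.17.1). The size rule stands in for a test. Alternatives were total counts, DESeq2 1.42.0 size factors, upper quartile factors, FPKM with 0.5 added, totals without the 100 most abundant genes, the single tables, a prior count of 5, no minimum or 5 CPM, and a correction for length decile. Transcript lengths were taken as counts over FPKM, set on GENCODE 29 lengths. The procedure was tested on simulated data. Coding sequences were the longest open reading frames of GENCODE 29 transcripts, and start windows came from RefSeq (GRCh38.p14), a build other than that of the files. Genes were named by rule: the 10 genes, LINC00472, NFE2L2, KEAP1, AHR, the closest paralogs, and up to 4 called genes per list with the largest ratios. CYP4F3, CYP1A1, CYP1B1 and ALDH1L2, and the cell type markers, were named beyond it, after their values were seen. The genes and lists were chosen with earlier results of these data known. Of 21 regulator names, 2 older synonyms did not match. A gene that the naming rule selects is not reported here.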

Additional observations from a re-analysis of the deposited data

How the results depend on the processing

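With 1 library per group, no library could be left out, and no paired analysis was possible because each group holds 1 sample. NQO1 kept its lower call and ABCC3 and AKR1C1 their higher calls under each of 8 alternatives, and AKR1B10 and ALDH3A1 stayed uncalled with ratios below 0. DESeq2 size factors, a prior count of 5 and the single-library tables changed no call among the 10 genes. Those checks are weak, since the single-library tables hold the same counts and the DESeq2 factors nearly equal those of TMM. A prior count of 5 moves genes with many counts little. The number of the 10 genes called higher went from 2 to 5 with total counts, upper quartile factors and totals without the 100 most abundant genes. The number lower went from 3 to 1 with these 3 scalings and with the correction for length. In the summed AKR1C genes the log2 ratio turned from -0.22 to 0.065, 0.16, 0.12 and 0.37 under the same 4 alternatives in that order, and AKR1C3 turned to 0.053 with the correction for length. For the sum, that correction was the plain mean of the shifts of the 3 genes, not weighted by their counts. The scalings move every gene by 1 shared amount. Higher calls among other NRF2 targets went from 1 to 3 with the 3 scalings and with FPKM, and to 0 with the correction for length. Lower calls among them went from 27 to 24 with total counts, to 21 with the other 2 scalings and to 23 with FPKM. They went to 19 with the correction for length, which has no value for the pseudogene TRIM16L. Relatives called higher went from 5 to 9 with total counts and to 10 with the other 2 scalings. Relatives called lower went from 12 to 7 with upper quartile factors, with totals without the abundant genes and with the correction for length. That correction has no value for AKR1C8P or for the listed pseudogenes. Xenobiotic receptor genes (the list with AHR) called higher went from 0 to 1 with the 3 scalings and without a minimum, and those called lower from 2 to 1 with the 3 scalings, FPKM and the correction for length. Over all genes, higher calls were 2288, and 3531 with upper quartile factors and 3510 without the abundant genes. They were 3657 without a minimum and 1347 at 5 CPM. Lower calls over all genes were 3341, and 1993 with upper quartile factors and 2142 without the abundant genes. The correction for length has values for protein-coding genes only, and it called 1262 of them higher, against 1378 without it. Depth limits ALDH3A1 most.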
